A study of Bos taurus with 30 samples.

Results

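The comparison of T2 with T1 within control cattle asked how far gene expression in blood immune cells of cattle outside the treated group differed between 2 samplings of the same animal. It rests on every array labelled control, 14 of the 30 in the study: 7 animals, numbered 17, 18 and 20 to 24, each measured once at T1 and once at T2. All 3269 genes that the array's annotation names were considered, and 2446 passed the filters and were tested. The study hybridised total RNA of bovine lymphocytes (Bos taurus), labelled with Cyanine 3, to Agilent bovine oligonucleotide arrays, with 1 animal per array. The other 8 animals were given prednisolone, a synthetic glucocorticoid, by mouth at 30 mg per head a day for 35 days, and were sampled at the same 2 time points. The labels do not say how T1 and T2 lie relative to that dosing, how many days separate them, or what sex, age or breed the animals had. By the labels every sample, T1 included, was collected at a slaughterhouse. The record that gives the prednisolone schedule is attached to the control samples too, so that the control arrays were identified by their own treatment label.

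Lymphocytes are the T, B and natural killer cells of the blood. Resting ones transcribe few cytokine genes, and cytokine messages are short-lived and respond quickly to stimulation. Cattle carry many gamma-delta T cells, marked by the WC1 scavenger receptors, and their MHC genes, which present peptides to T cells, differ widely between individuals. Such lasting differences between animals drop out when each animal is set against itself, which is why the animal number entered the fit as a block.

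The control arrays held a value for 34506 to 37986 of 44407 features, and 5 of the 7 animals had fewer at T2 than at T1. No sequencing depth exists for arrays, and the number of animals limits the precision. The markers CD3E of T cells, CD163L1 of gamma-delta T cells and CD79A of B cells were detected on all 14 arrays: CD3E averaged 13.98 ± 0.81 at T1 and 14.47 ± 0.40 at T2 on the log2 intensity scale (SD, n = 7), and CD79A of the B cell receptor 13.81 ± 0.33 and 13.98 ± 0.19 (SD, n = 7). Markers of other blood cells were detected too, among them the monocyte co-receptor CD14, the neutrophil calgranulin S100A12 and the beta globin HBB, each on every control array and CD14 at no less than 12.02 log2 units. The label lymphocytes thus does not cover all the cells whose markers were detected. In such mixed RNA, fewer cells of a type and less RNA per cell cannot be told apart.

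Most genes stood at nearly the same level at both samplings. The median difference, T2 minus T1, was 0.04 log2 units over 2446 genes, and 95.8% of genes lay between -0.5 and 0.5. For 70.2% the 95% confidence interval itself lay inside that range, and its median half-width was 0.25. Only 13 genes had a difference above 1 log2 unit in size, a factor of 2. After Benjamini-Hochberg adjustment of limma's p over all genes, 3 genes passed at 0.05 (0.123% of those tested), and all 3 rose: BIRC5, OSM and ADAP1. At an unadjusted p of at most 0.05, called nominal below, 282 genes were higher at T2 (11.5%) and 133 lower (5.44%). That tilt toward higher values depended on the scaling, as 68.0% of the nominal genes were higher with the scaling used here, 52.9% after centring each animal's differences on their median, and 7.0% after quantile normalization over all features, which moved the median of all genes to -0.126. Counted without a model, but on the same scaled values, 109 of the 2287 genes with a value on all 14 arrays were higher at T2 in every animal (4.77%). Lower in every animal were 52 (2.27%). These counts are therefore no independent check of the tilt. An exact sign-flip test over the sign patterns of 7 animals cannot give a two-sided p below 0.0156.

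**Figure D1:**
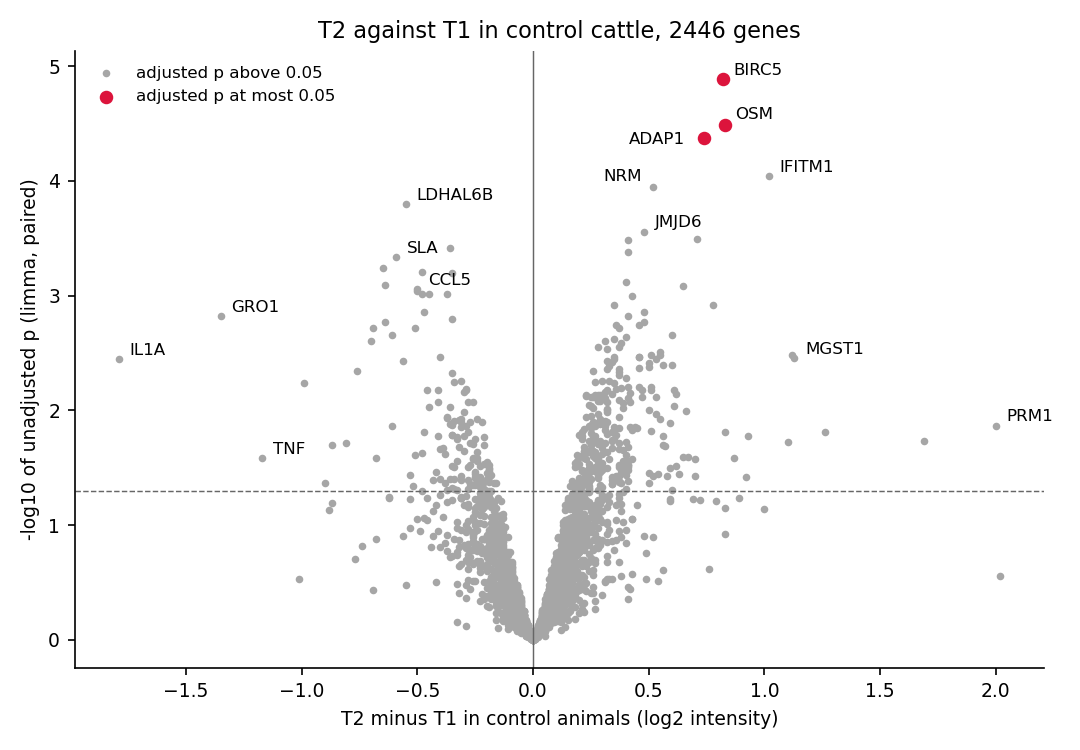
Each point is 1 of 2446 genes, placed by its T2 minus T1 difference in control animals (log2 intensity, horizontal) and by the -log10 of the unadjusted p of limma's paired fit (vertical); the dashed line marks 0.05. The 3 red genes, BIRC5, OSM and ADAP1, passed after adjustment, while IL1A, GRO1 and TNF lay farthest to the left with larger p.

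BIRC5 encodes survivin, which guides chromosome segregation in dividing cells and restrains apoptosis. Its T1 levels in animals 17, 18, 20, 21, 22, 23 and 24 were 8.93, 8.09, 7.68, 8.02, 7.76, 7.95 and 7.44 log2 units, and its T2 levels were 9.37, 9.03, 8.85, 9.04, 8.56, 8.58 and 8.17. Each animal was higher at T2, by 0.44 to 1.16, but the times overlapped, since animal 17 already stood at T1 above 4 of the others' T2 values. BIRC5 rose by 0.82 (SE 0.097, adjusted p = 0.0316), from 7.98 ± 0.47 to 8.80 ± 0.40 (SD, n = 7).

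ADAP1 encodes a phosphoinositide-binding protein that activates the hydrolysis of GTP by Arf GTPases. Its T1 levels, in the same order of animals, were 8.21, 7.03, 7.64, 7.25, 7.24, 6.69 and 7.42, and its T2 levels 8.75, 8.23, 8.29, 7.99, 7.71, 7.71 and 8.02. Animal 17 was again the highest at both times, and animals 18 and 23 showed the widest steps, of 1.19 and 1.01. ADAP1 rose by 0.74 (SE 0.102, adjusted p = 0.0343).

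OSM, oncostatin M, is a cytokine of the interleukin 6 family that myeloid cells and activated T cells make. It was dim, with T1 levels of 4.55, 4.68, 3.13, 4.01, 3.64, 2.83 and 2.73 and T2 levels of 5.18, 5.52, 3.65, 5.42, 4.27, 3.65 and 3.70. Genes with a mean below 3.64, the lowest 25%, had been left out of the tests. Every animal was higher at T2, and OSM rose by 0.83 (SE 0.110, adjusted p = 0.0343). With intensities under 16 raised to 16 its difference was 0.49 (adjusted p = 0.2162), and with the brighter of its spots alone 1.25 (adjusted p = 0.2454).

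The 3 calls were close to the threshold. Without animal 18, 20, 21, 22, 23 or 24 no gene passed, and without animal 17 BIRC5 and IFITM1 did, with IFITM1 at an adjusted p of 9.81e-04. Without the pairing of arrays by animal none passed and 245 genes were nominal, where the paired fit had 415. With the animal as a random block 22 genes passed, of which 14 were higher and 8 lower. Quantile normalization over all features gave 132 passing genes, 3 higher and 129 lower.

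**Figure D2:**
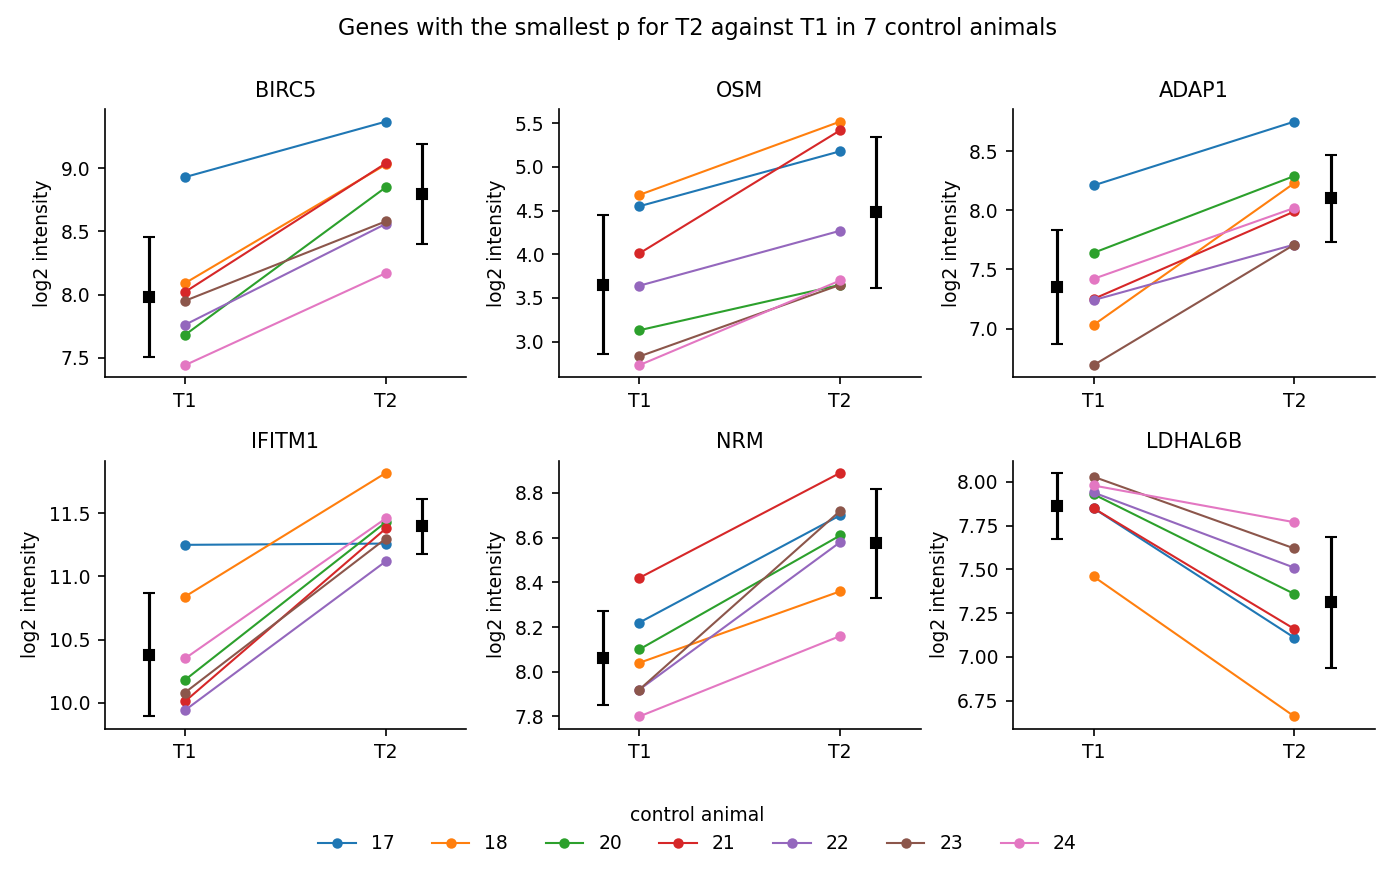
Log2 intensity (vertical) at T1 and T2 (horizontal) for 6 genes, with 1 coloured line per control animal and black squares for the mean with its SD (n = 7). BIRC5, OSM, ADAP1 and NRM go up in every animal, IFITM1 goes up in 6 animals by 0.98 to 1.37 and stands at 0.01 in animal 17, and LDHAL6B goes down in every animal.

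IFITM1, an interferon-induced membrane protein that hinders virus entry, had T1 levels of 11.25, 10.84, 10.18, 10.01, 9.94, 10.08 and 10.35 and T2 levels of 11.26, 11.82, 11.43, 11.38, 11.12, 11.30 and 11.46. Animal 17 was the highest at T1 and did not move, while the others came up to its level, so that the SD between animals was 0.49 at T1 and 0.22 at T2. The mean difference of 1.02 (SE 0.154) missed the threshold at an adjusted p of 0.0551. Of 13 interferon-induced genes tested, IFITM1 alone was nominal, while MX1 stood at 0.00, ISG15 at 0.22 and OAS1Z at -0.69, and the median was -0.06.

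The other genes with the smallest p among those higher at T2 did not pass either, and each was higher in 7 of 7 animals. NRM, a protein of the inner nuclear membrane, differed by 0.52 (SE 0.080, adjusted p = 0.0551). JMJD6, a nuclear lysyl hydroxylase that acts on splicing factors, differed by 0.48 (SE 0.084, adjusted p = 0.0890), and its T2 levels, 8.84 to 9.43, lay wholly above its T1 levels, 8.28 to 8.76. All T2 levels lay above all T1 levels for 4 of the 2446 genes tested. LOC509226, annotated by RefSeq as a pseudogene, differed by 0.71 (SE 0.127). COX6B1, a cytochrome c oxidase subunit, and NHP2, a protein of small nucleolar RNA particles and telomerase, each differed by 0.41 (SE 0.074 and 0.077). CD2, the adhesion receptor by which T cells and natural killer cells bind other cells, differed by 0.40 (SE 0.081, adjusted p = 0.1039).

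No gene passed in the lower direction, against 133 at the nominal level. LDHAL6B, a gene related to the lactate dehydrogenase A subunit, had the smallest p at -0.55 (SE 0.090, adjusted p = 0.0648), with levels from 7.46 to 8.03 at T1 and from 6.66 to 7.77 at T2. SLA, a Src-like adaptor that holds back signals of the T cell receptor, differed by -0.59 (SE 0.111, adjusted p = 0.0939). Its levels did not overlap between times, with T1 at 11.97 to 12.61 and T2 at 11.37 to 11.90. Of the 2446 genes tested, 3 were separated in this direction. For SLA, animal 23 alone had a step of -1.19. The complement regulator CD46 differed by -0.65 (SE 0.126), the co-chaperone DNAJB6 by -0.36 (SE 0.066) and CCL5, a chemokine of activated T cells and natural killer cells, by -0.50 (SE 0.103). Lower in 7 of 7 animals, too, were PDP1, the phosphatase that activates pyruvate dehydrogenase (-0.50), the splicing protein SNRPG (-0.45), methionine synthase MTR (-0.35), UNC50 (-0.48) and the dim ciliary gene EVC (-0.64).

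The largest differences were not the most reproducible ones. PRM1, the protamine that packs sperm DNA, had the largest mean difference among genes with a value on every control array, 2.0 (SE 0.655), but its level ran from 1.62 to 8.61 at T1 and animal 17 had a difference of -1.94. AQP1, the water channel of red cells and vessel walls, differed by 1.12 (SE 0.285) and MGST1, a glutathione transferase of the endoplasmic reticulum, by 1.13 (SE 0.289), each in 6 of 7 animals and from dim levels. On the lower side the largest were IL1A at -1.79 (SE 0.463), GRO1 at -1.35 (SE 0.303), TNF at -1.17 (SE 0.441), PLAC8A at -0.99 (SE 0.277) and IL1B at -0.90 (SE 0.382), of which all but PLAC8A are cytokines or chemokines. None of these 8 genes passed, with adjusted p from 0.1209 to 0.2757.

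Cytokines and chemokines were the gene list with the lowest median, -0.19 beside 0.04 over all genes. Of 37 genes on the array 29 were tested, and OSM alone passed. A further 8 were lower at the nominal level (CCL5, GRO1, IL1A, XCL1, IFNG, TNF, IL10 and IL1B) and none higher, while 5.44% of all genes were nominally lower. The list and these members were picked with earlier results known, and the count moved with the setting: 3 without the pairing, 5 without animal 20, 21 or 24, and 11 without animal 22. Its median was below 0 in each of the 24 settings in which it was computed, from -0.54 to -0.11. The 8 members not tested were IL5, IL13, IL17A, IL21, CSF2, CSF3, LIF and CCL20.

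IL1A encodes interleukin 1 alpha, an alarm cytokine. Its T1 levels in animals 17 to 24 were 8.10, 9.45, 11.51, 11.18, 8.57, 10.01 and 10.26, and its T2 levels 6.72, 7.50, 9.66, 7.57, 9.63, 8.33 and 7.11. It was lower at T2 in 6 animals, with the widest difference, -3.61, in animal 21, and higher by 1.06 in animal 22. TNF, the tumour necrosis factor, had T1 levels of 12.10, 12.82, 14.87, 14.51, 11.97, 13.80 and 14.07 and T2 levels of 12.12, 12.47, 13.12, 11.35, 12.68, 12.83 and 11.39. Here too animal 22 was higher at T2, by 0.70, while animal 17 stood at 0.02. Animals 21 and 24 had differences of -3.17 and -2.67.

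Animal 22 was higher at T2 for other cytokines of the list as well. Its difference was 1.47 for IL1B and 0.37 for the anti-inflammatory IL10, where the other 6 animals were all lower at T2. Dixon's criterion, used below to find single animals far from the others, did not mark animal 22 for IL1A, TNF, IL1B or GRO1. Among members that were not nominal, named after their values were seen, CXCL2, CCL3 and CCL8 differed by 1.65, 0.81 and 2.38 in animal 22 and by -0.59, -1.88 and -3.02 in animal 21. Their values in the other animals are not given here. GRO1, a chemokine that draws neutrophils, stood at 14.15 and 14.16 in animal 22 and was lower at T2 in the other 6, with differences of -0.53 to -2.73. By contrast CCL5, XCL1, which lymphocytes release to attract dendritic cells, and IFNG, interferon gamma, were lower at T2 in all 7 animals. CCL5 had levels of 14.40 to 15.88 at T1 and 13.89 to 15.47 at T2, and IFNG differed by -0.39 (SE 0.139), with the widest difference, -1.18, in animal 24.

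Monocyte and neutrophil RNA was measured beside these cytokines. None of the 11 monocyte and macrophage markers was nominal, with a median of 0.01, and the summed intensity of these 11 ran from 194824 to 358303 at T1 and from 233051 to 333686 at T2, higher in 4 of 7 animals. For neutrophils 2 of 9 markers were nominally higher, PGLYRP1 (0.53) and MMP9 (0.34), with a list median of 0.27, beside 11.5% of all genes nominally higher. The summed intensity of the 8 neutrophil markers with a value on every control array was 81837 to 197367 at T1 (median 183378) and 120105 to 212768 at T2 (median 155099), higher in 4 of 7 animals. Their part in the cytokine differences was not tested.

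**Figure D3:**
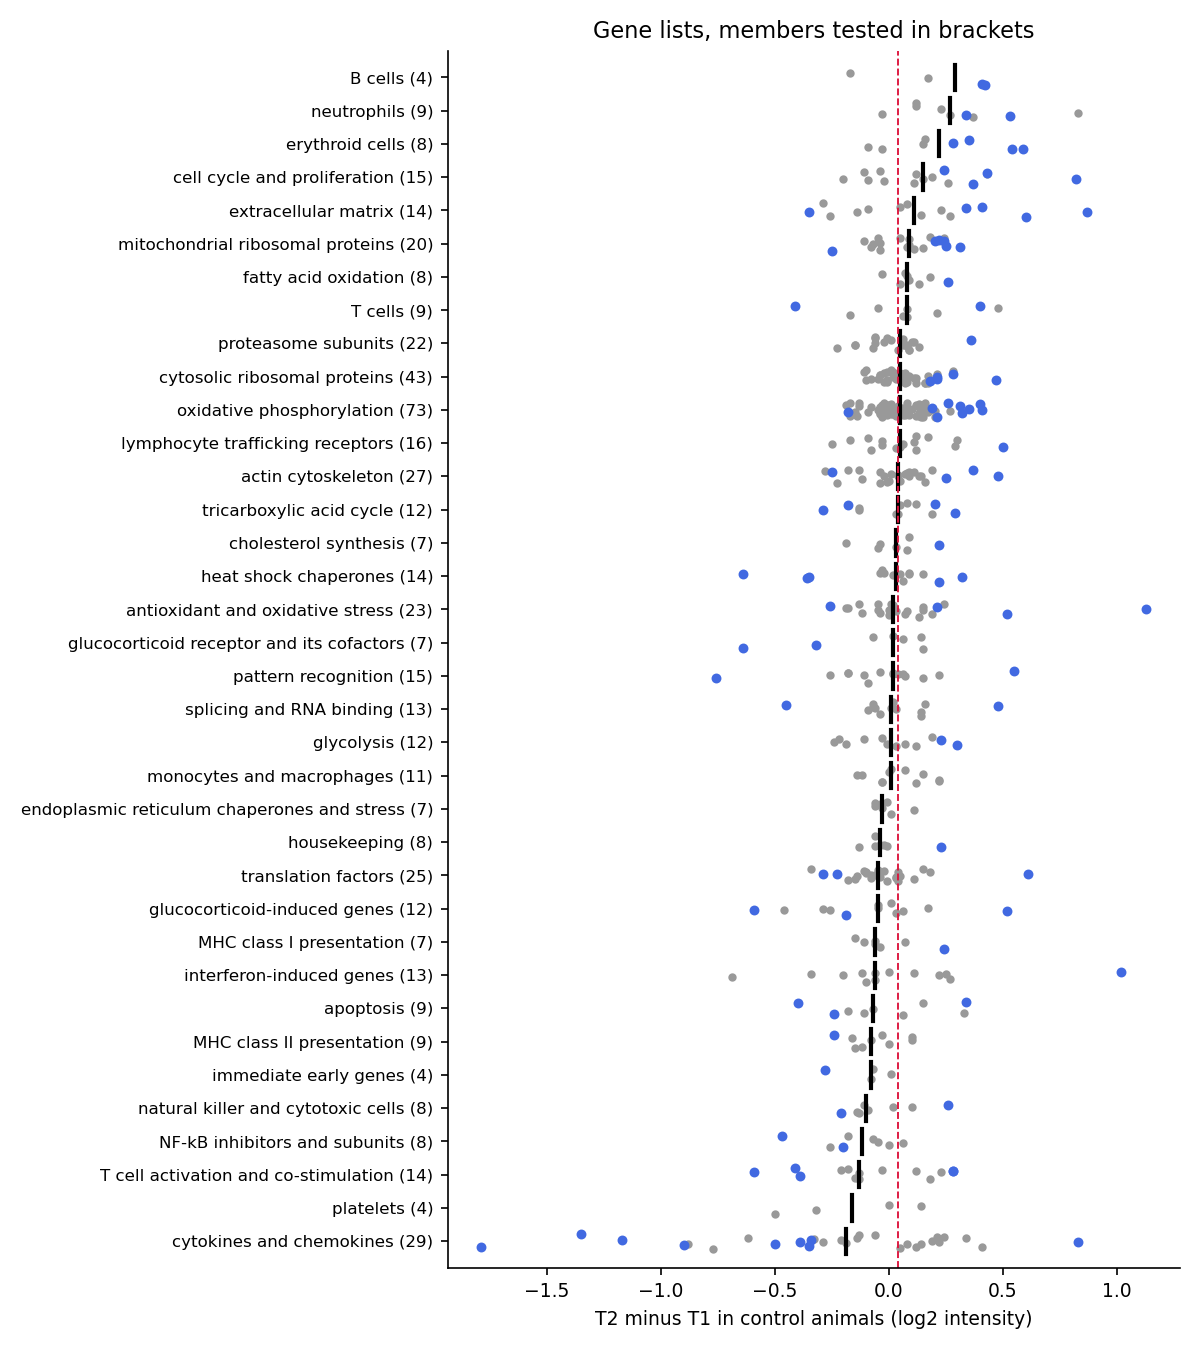
Gene lists (vertical, tested members in brackets, lists with at least 4) against the T2 minus T1 difference of each member in control animals (log2 intensity, horizontal). Blue points are nominal, black bars are list medians and the red dashed line is the median of all genes, 0.04; cytokines and chemokines have the lowest median, -0.19.

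Of 8 genes of the NF-kB pathway, NFKBIZ (-0.47, SE 0.103) and the kinase gene CHUK (-0.20, SE 0.082) were nominally lower, each in 7 of 7 animals. None was nominally higher and the median was -0.12, beside 5.44% of all genes nominally lower. Among 4 immediate early genes the stress gene GADD45B was nominal at -0.28 (SE 0.093). In the list of 14 T cell activation and co-stimulation genes, SLA, CD28 (-0.41) and IFNG were nominally lower, while CD40LG, the ligand by which T cells help B cells, and IL2RA, the interleukin 2 receptor alpha chain, each stood 0.28 higher. Over all genes 11.5% were nominally higher. Among 15 pattern recognition genes LBP, which carries lipopolysaccharide to CD14, was nominal at 0.55 and the flagellin receptor TLR5 at -0.76, the latter from the 6 animals with both values. Of the apoptosis list, with 9 members tested, the inhibitor CFLAR (-0.40) and the death receptor FAS (-0.24) were lower and their adaptor FADD (0.34) higher.

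Genes of the glucocorticoid response are of interest here because the other cattle received a glucocorticoid. The receptor NR3C1 had levels of 11.68 to 12.57 at T1 and 11.80 to 12.11 at T2, differed by -0.32 (SE 0.103, adjusted p = 0.1988), and was lower in 6 of 7 animals, with animal 17 at 0.23. Of 12 glucocorticoid-induced genes none passed and the median was -0.05. SLA and the clock-linked repressor BHLHE40 (-0.19) were nominally lower and the metallothionein MT2A (0.52) nominally higher, in 5 of 7 animals. ZBTB16, a strong target in many tissues, stood at 0.17 and ANXA1, annexin A1, at 0.01. In the heat shock list of 14, the co-chaperones DNAJB1 (-0.64), DNAJB6 and DNAJA1 (-0.35) were nominally lower and HSPB1 (0.32) and HSPA1A (0.22) nominally higher. For both lists the share over all genes was 5.44% nominally lower and 11.5% nominally higher.

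Genes of energy metabolism and protein synthesis lay close to 0. Of 73 oxidative phosphorylation genes 8 were nominally higher (11.5% of all genes were) and 1 lower, and the median was 0.05, or -0.04 after quantile normalization over all features. The higher ones were COX6B1, COX7C (0.26) and COX6A2 (0.31) of cytochrome c oxidase, ATP5PO (0.32), ATP5F1D (0.35) and ATP5MG (0.40) of the ATP synthase, and NDUFB1 (0.21) and NDUFB4 (0.19) of complex I. Among 43 cytosolic ribosomal proteins 5 were nominally higher and none lower, with RPL4 at 0.47 and FAU at 0.21, and 1 was higher after that quantile normalization. Of 20 mitochondrial ribosomal proteins 5 were higher, for instance MRPL49 (0.31), and MRPL16 (-0.25) was lower, against 0 higher and 1 lower after it. Over all genes, that normalization gave 44 of 2445 nominally higher and 583 lower, with a median of -0.126. The medians of these lists lay 0.01, 0.01 and 0.05 above that of all genes before it, and 0.09, 0.12 and 0.09 above it afterwards. Translation factors had EIF3L at 0.61 (SE 0.175) and the helicases EIF4A1 and EIF4A2 at -0.29 and -0.23 among 25 tested.

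Of 15 cell cycle genes BIRC5 passed and 3 more were nominally higher: CCNB2 (0.43) and CDK1 (0.37), which drive entry into mitosis, and MCM7 (0.24) of the replicative helicase. None was nominally lower, and the median was 0.15, beside 11.5% of all genes nominally higher. After quantile normalization over all features the median was 0.01, with 2 nominally higher and 1 lower. In that setting 44 of 2445 genes were nominally higher and 583 lower, and the median of all genes was -0.126. The cell cycle median lay 0.11 above that of all genes with the scaling used here and 0.14 above it after that normalization. Erythroid genes were measured beside the cell cycle genes. Of 8 tested, 4 were nominally higher, namely the globins HBB (0.35) and HBG (0.28), carbonic anhydrase CA2 (0.59) and the anion exchanger SLC4A1 (0.54), and after that normalization 3 were higher and 1 lower. The summed intensity of the 7 erythroid genes with a value on every control array, which leaves out SLC4A1, was higher at T2 in 5 of 7 animals. Whether they bear on the BIRC5 value was not tested.

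Among lymphocyte markers, 1 of 9 T cell genes was nominally higher (CD2) and 1 lower (CD28), beside 11.5% and 5.44% of all genes. CD3D stood at 0.08 and CD3G at 0.06. CD163L1, a WC1-type receptor of gamma-delta T cells, stood higher in 7 of 7 animals by 0.08 to 0.33. JCHAIN, the joining chain of secreted IgM and IgA, was nominal at 0.42 and the complement receptor CR2 of B cells at 0.41, while CD79A stood at 0.17 and CD40 at -0.17. Of 8 natural killer and cytotoxic genes NCR3 (0.26) was nominally higher and KLRB1 (-0.21) lower, and granzyme B, GZMB, stood at 0.02. The MHC class I and class II presentation lists had medians of -0.06 and -0.08. Each held 1 nominal gene, FCGRT (0.24) on the class I list and BOLA-DQA1 (-0.24) on the class II list.

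The animal term passed for more genes than the time term did. It passed for 180 of the 2287 genes with a value on all 14 arrays (7.87%), and the 3 genes that rose were among these. Both terms were set against the same residual spread, so that this overlap is partly built in. The animal term was an F test and the time term a single contrast over 2446 genes, so their counts are not directly comparable. The median SD of the animals' means over T1 and T2 was 0.21 log2 units, and the median SD of single arrays within an animal was 0.20. Those means still hold part of the spread within animals, so these SDs cannot be compared directly. The median intraclass correlation, the share of the variance that lies between animals, was 0.35. An animal's deviations from the group means at T1 and T2 correlated at 0.391 to 0.584 over 2287 genes, which are not independent replicates, and those of different animals at -0.302 to 0.223. Each of the 7 animals correlated best with itself.

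The clearest case was LOC616942, an uncharacterised protein-coding gene that RefSeq places near CDSN, CCHCR1 and MUC21. Animals 17 and 18 had 7.40 and 7.74 at T1 and 7.88 and 7.89 at T2, while the other 5 lay between 12.48 and 15.26 at both times. This split of the animals was drawn from the same values, so that the gap between them is a description and no test. The animal term had an adjusted p of 5.42e-08 in limma's F test, the smallest of the 2287 genes. The time difference was -0.05 (SE 0.110).

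The animal term passed for 1 of 7 genes on the MHC class I list, JSP.1, and 1 of 8 on the class II list, BOLA-DQA1, beside 7.87% of all genes, and for BOLA-DQB1, which is on neither list. JSP.1, a class I gene, was at 10.93 and 11 in animal 24 and at 12.21 to 13.75 in the others. BOLA-DQB1, a class II beta chain, lay at 13.87 to 14.24 in animals 17, 18 and 23 and at 15.36 to 15.89 in the other 4. BOLA-DQA1, the alpha chain of the same dimer, was lower in animals 17, 18, 23 and 24, at 10.18 to 11.13, than in animals 20, 21 and 22, at 11.84 to 12.43. These genes are polymorphic and have close copies in the genome, and how well each animal's alleles match the array's probes was not tested.

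Some genes of lymphocyte subsets also kept their order between animals. CD163L1 ran from 13.16 in animal 22 to 15.11 in animal 18 at T1, and from 13.46 to 15.19 at T2 in the same animals, with an SD within an animal of 0.06. GZMB, which killer cells inject into their targets, was at 12.76 to 13.59 in animals 18, 20 and 23 and at 11.38 to 12.17 in the others. The uncharacterised genes LOC617313 and LOC508646, which RefSeq places near GZMB, were high in animals 20 and 23 too, at 11.33 to 12.49 and 11.24 to 12.28. The animal term passed for 4 of 8 natural killer and cytotoxic genes (KLRD1, GZMB, PRF1 and KLRB1), beside 7.87% of all genes. It passed for 2 of 9 T cell genes, CD247 and CD8A, and for 1 of 4 B cell genes, JCHAIN. CD8A, the co-receptor of cytotoxic T cells, was highest in animal 23. Among cytokines the animal term passed for IFNG, CCL5, XCL1, OSM and MIF, 5 of 25, and IFNG was highest in animal 23 at both times.

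HBB was at 15 and 15.72 in animal 20 and at 18.32 and 18.42 in animal 23, and HBG and ALAS2, which makes heme in red cell precursors, also had animal 20 lowest and animal 23 highest. The animal term passed for these 3 of 7 erythroid genes, and for 3 of 11 monocyte and macrophage markers, CST3, MSR1 and FCN1. Over all genes it passed for 7.87%. For MSR1, a scavenger receptor of macrophages, animal 17 was lowest at T1, at 5.71, and animal 24 highest at both times, at 7.26 and 7.28.

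**Figure D4:**
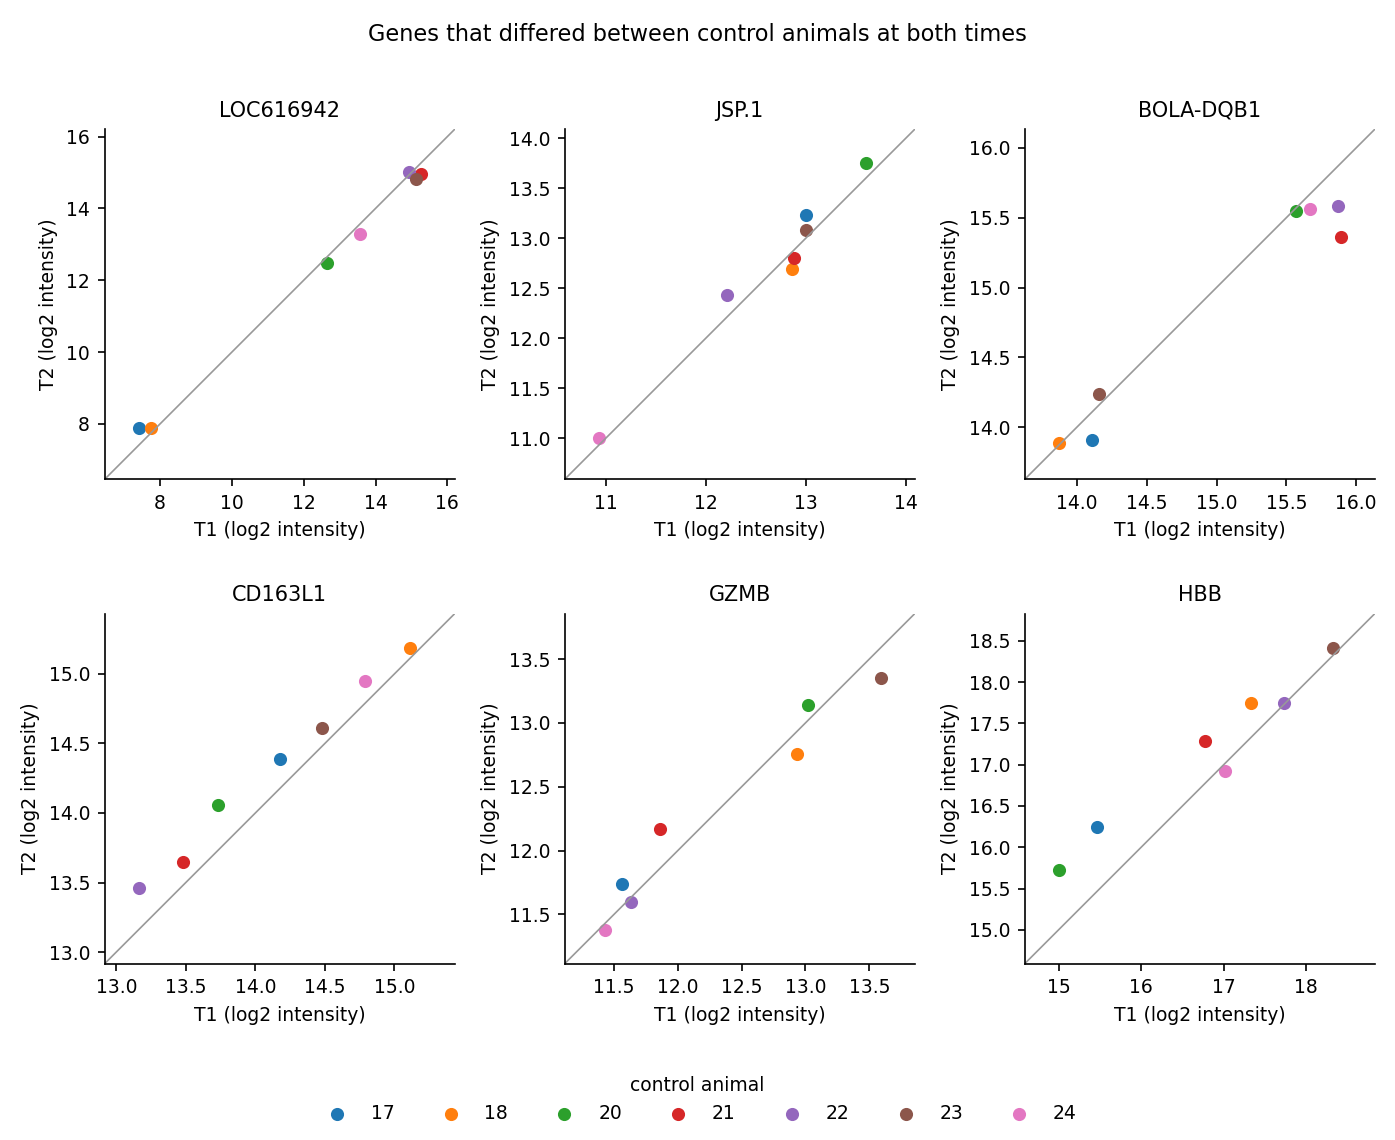
Log2 intensity at T2 (vertical) against T1 (horizontal) for 6 genes whose level differed between animals, 1 point per control animal, with the grey line where both are equal. Points lie along the line, so an animal low at T1 was low at T2; LOC616942 has animals 17 and 18 at 7.40 to 7.89 and the rest at 12.48 to 15.26.

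The within-animal differences of the 7 control animals were set against those of the 8 treated animals, which share no array with them. The difference of differences passed for 625 of 2446 genes (25.6%), with the control value above the treated one for 290 and below it for 335. In 564 of the 625 the control difference was the smaller in size, and over the 625 the median size was 0.13 in controls and 0.57 in treated animals. These genes were selected for a difference between the groups. Over all 2446 genes the median size was 0.12 in controls and 0.28 in treated animals. Over all genes the 2 sets of differences had a correlation of 0.12. Of the 415 genes nominal in controls, 262 had the same sign in the treated animals and 122 differed between the groups. When treated animals 28 and 32 were left out, 384 genes passed.

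The genes that rose in controls were not alike in this respect. BIRC5 differed by 1.01 between times in the treated animals and OSM by 0.86, and neither contrast with the controls passed, with a control minus treated difference of -0.19 (SE 0.292, adjusted p = 0.6632) and -0.03 (SE 0.301, adjusted p = 0.9507). ADAP1 stood at 0.07 in the treated animals, and its control minus treated difference was 0.67 (SE 0.172, adjusted p = 0.0109). COX6B1 and NHP2, at -0.12 and -0.02 in the treated animals, passed as well, by 0.53 (SE 0.147) and 0.43 (SE 0.094).

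The chemokine GRO1 stood at -1.35 in controls and 0.47 in treated animals (difference -1.82, SE 0.425, adjusted p = 0.0068). IL1A, TNF and IL1B were lower at T2 in both groups, at -1.38, -1.51 and -1.53 in the treated animals, and none of these differences of differences passed (adjusted p from 0.4874 to 0.7107). SLA and DNAJB6 were lower in both groups and more so in the treated one, at -1.25 and -0.98, with differences of 0.66 (SE 0.150) and 0.62 (SE 0.113) that passed. The genes with the smallest p for this contrast were mostly flat in controls. PTRH2, a mitochondrial peptidyl-tRNA hydrolase, stood at -0.08 against -0.85, the proteasome ATPase PSMC2 at 0.10 against -0.54 and the matrix protein THBS1 at 0.14 against -2.63. UBE2D1, a ubiquitin-conjugating enzyme, stood at 0.06 against 1.39, IL15, which sustains natural killer and memory T cells, at -0.19 against 1.99 and TLR5 at -0.76 against 1.87.

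**Figure D5:**
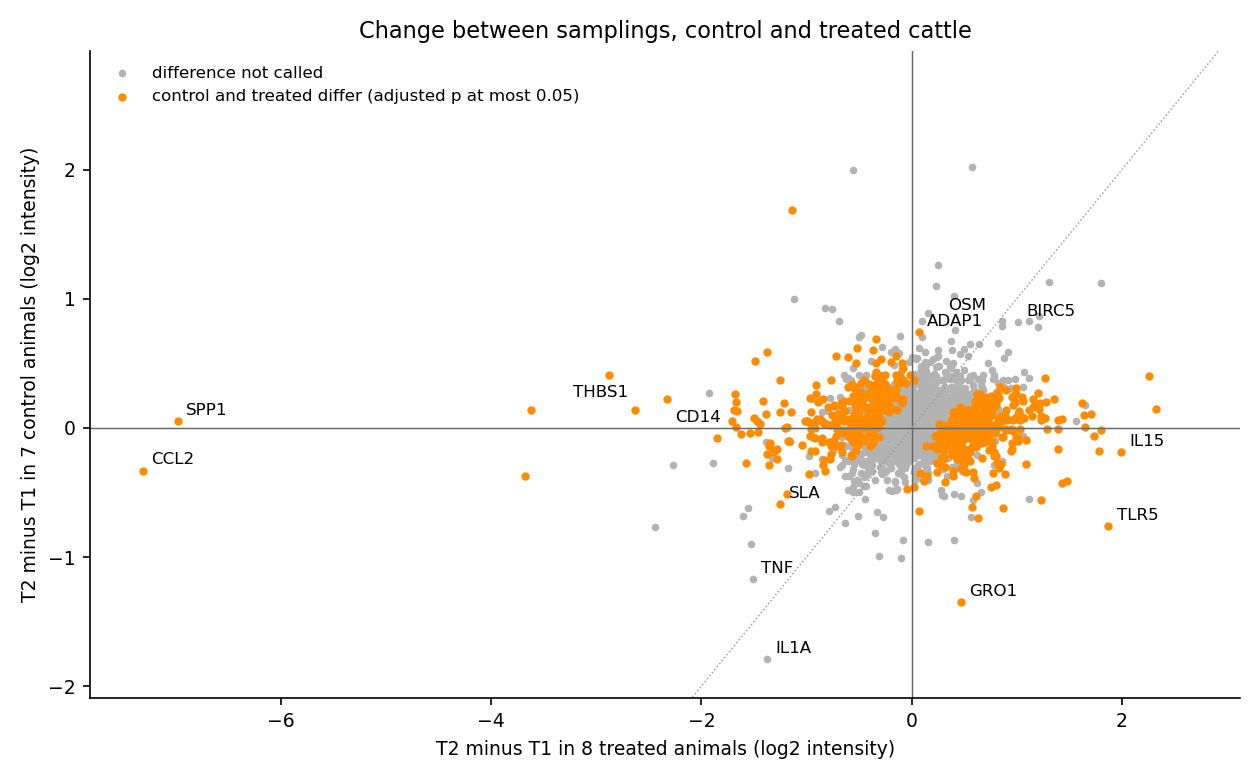
T2 minus T1 in 7 control animals (vertical) against the same in 8 treated animals (horizontal), both in log2 intensity, 1 point per gene, with axes of unequal scale and a dotted line where both are equal. The 625 orange genes differed between the groups; most of them lie near 0 on the control axis and spread along the treated one, as THBS1 (0.14 and -2.63) and IL15 (-0.19 and 1.99) do.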

How the data were processed

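The authors deposited 1 table of linear intensity values per feature and array. Per the series' design text, each array was scanned at 2 sensitivities, and Feature Extraction 9.5 joined the scans, detrended the signal and subtracted background. R 2.11.1 is listed in the submitters' processing notes. For normalization between arrays, and for the rule behind null cells (17.16%), the method is not given in the sources used here.

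Arrays were brought to a common 75th percentile, taken over 23055 features measured on every array (a shift of at most 0.044 log2 units), values under 2.51 (percentile 1) were raised to it, and log2 was taken. Of 44407 features, 6954 had a gene name, updated through RefSeq names of assembly ARS-UCD2.0, which gave 3269 genes; 37453 were unnamed. Both spots of a gene were averaged, as chosen after seeing the values (for genes with more, those within 0.25 log2 units of the brightest). Genes with under 4 values in a group or in the lowest 25% by mean intensity were left out. Of 2446 tested, 159 lacked a value on some control array; missing values were left out of the fits.

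Differences were fitted with limma 3.58.1 in R 4.3.3, two-sided, with the animal as a block and Benjamini-Hochberg adjustment over all genes tested; SE is limma's. The animal term was tested by its F over 2287 complete genes, and controls were set against treated animals on 15 within-animal differences. The pairing comes from the animal number in the sample titles and was checked: 7 of 7 animals' deviations correlated best with their own. No slide or batch is labelled. Nothing states how the cells were isolated. The p-values of the time difference measure how far the change varied between these animals. They do not measure a shift shared by all samples of a time point, such as one from handling. The fits were tested on simulated data. Python 3.11.15, numpy 2.4.6, pandas 2.3.3 and matplotlib 3.10.9 were used.

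The comparison, the gene lists and the naming rule were chosen with earlier results of these data known. Named were the genes that passed, the 10 smallest p in each direction, up to 3 nominal members of a list by smallest p, the 5 largest differences in each direction among genes with a value on all 14 control arrays, the top 10 of the animal term, the 5 smallest p in each direction of the contrast with treated animals, and cell type markers. Other members in the text were chosen after their values were seen. The alternatives covered pairing, scaling, floor, filter, spots, missing values, variance model and each animal left out.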

Additional observations from a re-analysis of the deposited data

Results flagged for a closer look

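Among the 120 named genes with a difference in all 7 control animals, 6 had 1 animal far from the others by Dixon's criterion; chance marks about 1 in 20 such groups, so that this number is about what chance gives. The animal and its T2 minus T1 difference were animal 17 for IFITM1 (0.01) and NR3C1 (0.23), animal 23 for SLA (-1.19), animal 22 for CHUK (-0.55), and animal 18 for PLAC8A (-2.76) and LOC617313 (0.23).

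For 31 named genes the change between times differed between control and treated animals in limma's test of the difference itself (adjusted p at most 0.05). They are 31 of 123 named genes, where 25.6% of all genes tested passed, and 10 of them were named for this same contrast. In this paragraph each value is the control difference minus the treated one in log2 units. Genes with the control value above were LOC407218 (3.31), LOC511106 (2.83), THBS1 (2.78), CD14 (2.55), MT2A (2.01), PTRH2 (0.77), ADAP1 (0.67), SLA (0.66), FADD (0.65), PSMB5 (0.65), PSMC2 (0.64), DNAJB6 (0.62), DNAJB12 (0.56), EIF4A1 (0.55), COX6B1 (0.53), BHLHE40 (0.47), LDHA (0.46), JSP.1 (0.44) and NHP2 (0.43). Those with the control value below were TLR5 (-2.63), IL15 (-2.17), GRO1 (-1.82), KLRJ1 (-1.79), UBE2D1 (-1.33), ZNF330 (-0.98), NCR1 (-0.90), PRDX6 (-0.75), EIF4A2 (-0.75), EVC (-0.71), TPM2 (-0.49) and NFKBIZ (-0.42).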

How the results depend on the processing

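The 3 genes passing between times became 0 without the pairing (no replicate block), 22 with the animal as a random replicate block, 11 with the replicate block over all 30 arrays, 132 under quantile normalization over all features, 1 with intensities under 16 raised to 16, 0 without the filter on mean intensity, 7 with a gene's features all averaged, 5 with genes complete on all 14 arrays only, 5 with array weights, 0 when all 29988 features were tested by themselves (4824 nominal), and 1 without animals 17 and 20, a setting chosen after the data were seen. It was 2 or 3 in the other settings, and 0 to 2 with each animal left out in turn. BIRC5 passed in 13 of 23 other settings, ADAP1 in 9 of 21, OSM in 5 of 21; IFITM1 and NRM, not called in the report (adjusted p = 0.0551 each), passed in 11 and 6 of 23. The 180 genes that differed between animals became 84 without animals 17 and 20, 127 to 215 with each animal left out, and 129 to 196 in the other settings; complete genes only is how that test was run. The 625 genes differing from treated animals became 384 without treated animals 28 and 32, 433 with no replicate block, and 484 to 620 with each control animal left out; quantile normalization over all features split them 127 above to 491 below, in place of 290 to 335. Of 90 named genes that were nominal, 86 kept their direction in every setting that tested them, at most 23 per gene. The exceptions were EVC at 0.09 with the brightest feature alone and, under quantile normalization over all features, CD40LG at -0.06, IDH3A at -0.06 and ASZ1 at -0.19; the cause was not tested. Among the 33 named genes that were not nominal, signs changed 35 times. OSM, EVC, MGST1 and TLR5 are dim, and spots near background limit their precision.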

Other observations

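Several genes moved with the same animals. LOC511106, among the largest differences at 1.69 (SE 0.592), differed by 4.45, 2.06, -0.38, 3.27, 2.65, 0.28 and -0.49 in animals 17, 18, 20, 21, 22, 23 and 24. DGAT2, the enzyme of the last step of triglyceride synthesis, differed by 2.70, 1.48, -0.70, 2.0, 1.91, 0.38 and -0.08 in the same order. CXCR1, a chemokine receptor of neutrophils, gave 2.29, 1.01, -0.89, 1.95, 1.98, -0.62 and 0.09, and MT2A 0.93, 0.75, -0.37, 1.1, 1.28, -0.32 and 0.28. Animals 17, 18, 21 and 22 were higher at T2 for all 4 genes, and animal 20 was lower for all 4. These 4 were set side by side after their values were seen, none passed, and animals 17, 18, 20, 21 and 22 also had fewer features with a value at T2.

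Some genes stood closer together at T2. CAPZB, a protein that caps actin filaments, had T1 levels of 10.63 to 11.34 and T2 levels of 11.37 to 11.51, so that the times did not overlap. Of the 2446 genes tested, 4 were separated in this direction. The SD of CAPZB was 0.28 at T1 and 0.05 at T2. EIF3L had an SD of 0.51 at T1 and 0.10 at T2, and LOC509226 one of 0.33 and 0.09. The differences of EIF3L ran from -0.24 in animal 17, the highest at T1, to 1.35 in animal 23, the lowest. No test of the spread was made, and these genes were picked after their values were seen.

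The collagen chain COL6A2 stood at 7.11 to 7.52 at T1 and at 6.88 to 7.06 at T2, lower in 7 of 7 animals, with a mean difference of -0.35 (SE 0.080, adjusted p = 0.1209).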
